A study of Homo sapiens with 27 samples.

Results

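The keratin family was described across 3 human colorectal cancer cell lines and their drug-resistant derivatives. Members were the gene rows whose symbol is KRT followed by a number and, at most, a letter A to C, which took 55 of the 26255 genes in the files. A member was reported when its level reached 1 TPM (FPKM, fragments per kilobase of exon per 1000000 mapped fragments, rescaled to a library sum of 1000000) in at least 3 of the 9 libraries of a line. This left 29 reported keratins, 18 in HCT116, 21 in SW480 and 16 in DLD-1, of which 10 were reported in all 3 lines. RNA-seq was made from HCT116, SW480 and DLD-1 cells, each untreated (WT), made resistant to fluorouracil (5-FU res) or made resistant to oxaliplatin (OX res), in 9 groups of 3 libraries. The resistant cells had been kept for about 6 months in 5 to 70 µM 5-FU or 5 to 35 µM OX, as the labels give it, and the study's methods describe the selection for HCT116 and SW480 only. How many populations were selected per line is not stated, and no further genetic change is named for any group. Whether the 3 libraries per group are separate cultures is not stated in the sources used here, and the p-values therefore cover the spread among libraries alone, possibly a technical one.

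Replicate libraries correlated at r = 0.9907 to 0.9947 on log2(TPM + 1) across genes, and no pair was identical. Total reads were not given in the sources used here; the whole-read steps of low values placed the depths between 0.72 and 1.13 of that of the first HCT116 WT library. The DLD-1 libraries carry names from another number series, so that line and library series cannot be told apart in comparisons with DLD-1. The 8 colorectal epithelial markers summed to 690.2 to 714.4 TPM in HCT116 WT, 465.8 to 522.4 TPM in SW480 WT and 1743 to 1811 TPM in DLD-1 WT, although LGALS4 and CEACAM5 averaged below 1 TPM in HCT116 and SW480, and VIL1 in HCT116 and DLD-1. That sum was 121.2 to 124 TPM in HCT116 OX res, 190 to 199.5 TPM in SW480 5-FU res and 326.4 to 356.7 TPM in SW480 OX res. Of the 8 fibroblast markers, 0 to 2 averaged 1 TPM or more in any group, of the 8 leukocyte markers 2 to 3 (CD68 with CD14 or LYZ), and of the 8 endothelial markers 1 to 2. The defining leukocyte genes PTPRC, CD3E and MS4A1 averaged below 1 TPM in all 9 groups.

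Keratins are the intermediate filament proteins of epithelial cells. A type I (acidic) keratin assembles with a type II (basic) keratin, so that filaments need members of both types, and the pairs are characteristic of an epithelium: KRT8 with KRT18, KRT19 or KRT20 in simple epithelia such as the colon, KRT5 with KRT14 in the basal layer of stratified epithelia, KRT4 with KRT13 in the upper layers of mucosa such as the oesophagus, KRT6A and KRT6B with KRT16 and KRT17 in healing or rapidly dividing epithelium, and a further set in hair. In the bowel KRT20 marks differentiated surface cells, and KRT7 is usually low there while it is common in other glandular epithelia. In the human genome the type II genes lie side by side on chromosome 12 with KRT18 at their end, and the other type I genes lie on chromosome 17.

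The reported keratins on chromosome 12 numbered 15, from KRT80 to KRT18 (GRCh37, chr12:52562780-53346690), and those on chromosome 17 numbered 14, from KRT222 to KRT17 (chr17:38810917-39781094). RefSeq promoter windows (GRCh38.p14, each found once as the same letters in GRCh37) were at hand for 14 of the 29 reported keratins. The 250 bases before the RefSeq start are shown for 5 genes on which the results turn: KRT4, which moved in opposite directions in the resistant DLD-1 cells, KRT20, which was lower in resistant cells of HCT116 and DLD-1, the neighbouring hair keratins KRT34 and KRT31, which rose in different lines, and KRT71, which was lower in both resistant SW480 states. All 5 genes are on the minus strand, and each window is printed 5′ to 3′ in the sense of its gene, at chr12:53207901-53208150 (KRT4), chr17:39041495-39041744 (KRT20), chr17:39538559-39538808 (KRT34), chr17:39553861-39554110 (KRT31) and chr12:52946930-52947179 (KRT71) of GRCh37, all upstream of the annotated gene. Capitals mark TATAAA, searched on both strands.
KRT4: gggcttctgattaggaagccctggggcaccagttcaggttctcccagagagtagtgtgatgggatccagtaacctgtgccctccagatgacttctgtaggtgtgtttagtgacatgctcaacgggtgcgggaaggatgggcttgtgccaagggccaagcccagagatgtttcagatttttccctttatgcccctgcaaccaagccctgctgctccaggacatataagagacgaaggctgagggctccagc
KRT20: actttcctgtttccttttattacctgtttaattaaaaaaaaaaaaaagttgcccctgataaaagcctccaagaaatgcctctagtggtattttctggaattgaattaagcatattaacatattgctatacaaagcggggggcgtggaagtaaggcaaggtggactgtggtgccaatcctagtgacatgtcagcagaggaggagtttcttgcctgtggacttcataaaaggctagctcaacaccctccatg
KRT34: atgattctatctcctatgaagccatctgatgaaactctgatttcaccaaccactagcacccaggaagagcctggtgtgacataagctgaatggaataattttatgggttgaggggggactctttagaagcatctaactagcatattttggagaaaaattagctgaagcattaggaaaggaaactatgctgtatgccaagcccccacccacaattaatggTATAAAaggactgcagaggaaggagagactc
KRT31: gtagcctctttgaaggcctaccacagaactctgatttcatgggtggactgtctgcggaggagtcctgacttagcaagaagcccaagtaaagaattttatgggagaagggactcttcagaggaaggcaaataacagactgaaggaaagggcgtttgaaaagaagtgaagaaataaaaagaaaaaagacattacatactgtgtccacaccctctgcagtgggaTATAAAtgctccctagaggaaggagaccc
KRT71: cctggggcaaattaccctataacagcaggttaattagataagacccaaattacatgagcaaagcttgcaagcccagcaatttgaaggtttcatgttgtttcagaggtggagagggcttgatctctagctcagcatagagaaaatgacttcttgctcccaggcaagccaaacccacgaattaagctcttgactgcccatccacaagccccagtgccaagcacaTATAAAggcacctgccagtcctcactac
TATAAA was present in 6 of the 14 keratin windows, against 10.7% of 35114 RefSeq windows of the same length. GGGCGG was present in 2 of the 14 against 42.6% of all windows, and TGANTCA in 0 of the 14 against 6.57%, both searched on both strands. Among the 5 windows shown, KRT34, KRT31 and KRT71 held TATAAA and KRT4 and KRT20 held none of the 3 motifs. These are matches of letters and no binding was measured.

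KRT8, KRT18 and KRT19, the keratins of simple epithelium, made up most of the keratin transcripts in every library. In these bulk samples fewer cells that express a gene and less RNA per cell cannot be told apart. Their share of the summed TPM of all keratins was 96.7% to 98.4% in HCT116 and 98.4% to 98.9% in DLD-1, while in SW480 it was 71.0% to 80.2%, where KRT5 and KRT23 took most of the remainder. In WT cells the type II keratin KRT8 stood at 3506, 3397 and 3388 TPM in HCT116, 4027, 4241 and 4279 TPM in SW480 and 4564, 4688 and 4798 TPM in DLD-1. The type I keratin KRT18 stood at 1871, 1924 and 1844 TPM in HCT116, 3450.4, 3632 and 3637 TPM in SW480 and 3106, 2959.9 and 3233 TPM in DLD-1. KRT19 was at 1239, 1188 and 1155 TPM in HCT116, 879, 960 and 887 TPM in SW480 and 543, 518 and 525 TPM in DLD-1. Within each WT line the order KRT8, KRT18, KRT19 held in every library, and in SW480 KRT5 lay between KRT18 and KRT19.

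**Figure D1:**
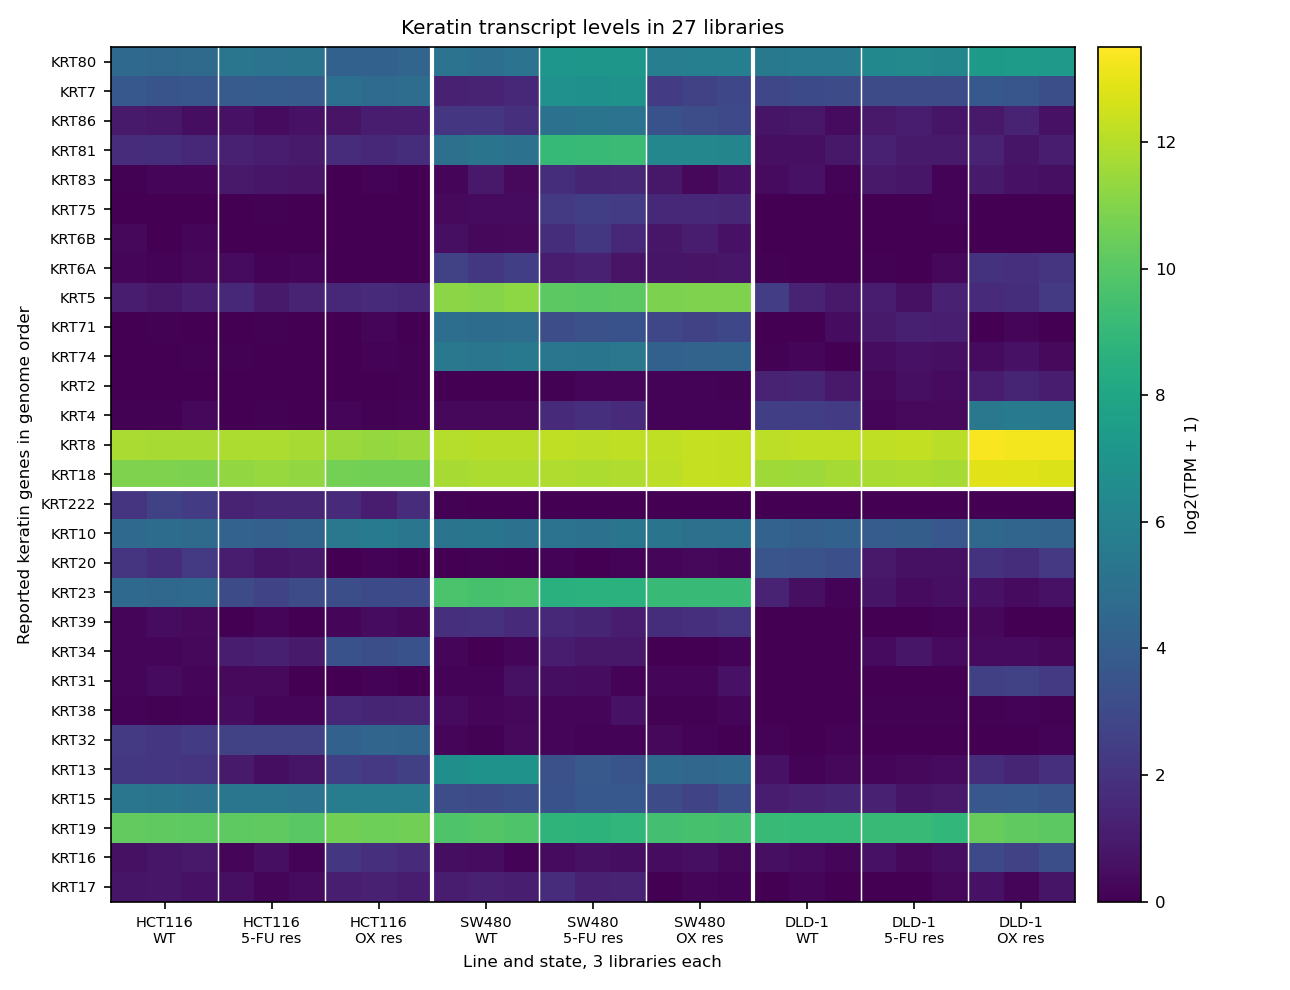
Level of the 29 reported keratins, as log2(TPM + 1), in each of the 27 libraries, with genes in genome order and the chromosome 12 genes above the thick white line. KRT8, KRT18 and KRT19 are bright in all libraries, KRT5 and KRT23 in the 9 SW480 libraries, and KRT81 in SW480 5-FU res.

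The WT lines differed most in keratins other than KRT8 and KRT18. A gene was called when limma gave a Benjamini-Hochberg adjusted p under 0.05 over all genes tested and a log2 fold change beyond 1 in either direction; log2 fold changes are differences of the mean log2(TPM + 1), which understates the change of genes at a few TPM or less. Between SW480 and HCT116, 14 of the 29 keratins were called, against 25.3% of all genes. Between DLD-1 and HCT116 the count was 9, against 34.8% of all genes, and between DLD-1 and SW480 it was 15, against 36.1%. KRT8 and KRT18 were not called in any of these 3 comparisons. Where called genes are said below not to overlap between groups, this describes their values and adds no support to the call. The share of all genes without overlap is not given.

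SW480 WT carried keratins of stratified epithelium and hair follicle that were low in the other lines. KRT5, the basal keratin, was at 2298, 2147 and 2327 TPM in SW480, 1.11, 0.807 and 1.17 TPM in HCT116 and 4.56, 1.44 and 0.865 TPM in DLD-1, a log2 fold change of 10.12 (SE 0.25, adjusted p = 1.03e-20) for SW480 over HCT116. Its usual partner KRT14 reached at most 0.893 TPM in any SW480 library and was below the reporting level in all 3 lines. KRT23, a type I keratin, was at 805, 748 and 800 TPM in SW480 and 23.8, 23.0 and 23.6 TPM in HCT116, a log2 fold change of 5.00 (SE 0.17, adjusted p = 8.47e-18), and at 1.51, 0.451 and 0.102 TPM in DLD-1. The SW480 values lay far above all values of the other lines for both genes. KRT13 of mucosal epithelium was at 106, 117 and 119 TPM in SW480 against 3.64, 3.41 and 3.17 TPM in HCT116 (log2 fold change 4.71, SE 0.14, adjusted p = 8.99e-19). The inner root sheath keratins KRT74 and KRT71 averaged 40.87 and 27.17 TPM in SW480 and under 0.2 TPM in the other lines. KRT81, a hair cortex keratin, averaged 33.48 TPM in SW480 and 2.17 TPM in HCT116 (log2 fold change 3.44, SE 0.12, adjusted p = 6.79e-18).

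HCT116 WT and DLD-1 WT were set apart by other members. KRT15, a keratin of basal and hair follicle cells, averaged 35.18 TPM in HCT116, 8.16 TPM in SW480 and 1.37 TPM in DLD-1, and all 3 pairs of lines were called. KRT32, a hair cuticle keratin, averaged 3.80 TPM in HCT116 and 0.166 TPM or less in the others. KRT222 averaged 4.21 TPM in HCT116, 0.0233 TPM in SW480 and was listed at 0 in DLD-1. DLD-1 WT had the highest KRT20 with 10.6, 9.91 and 8.84 TPM, against 3.30, 2.43 and 3.94 TPM in HCT116 (log2 fold change 1.36, SE 0.12, adjusted p = 5.70e-10, a call lost with FPKM as deposited, quantile normalization and median-of-ratios scaling). In SW480 WT KRT20 was at 0, 0.0662 and 0 TPM. DLD-1 WT also had the highest KRT4, with 4.78, 4.66 and 4.28 TPM against at most 0.241 TPM in any WT library of the other lines (log2 fold change 2.33 over HCT116, SE 0.08, adjusted p = 1.92e-18). KRT7 averaged 11.29 TPM in HCT116, 7.16 TPM in DLD-1 and 1.59 TPM in SW480, and was called in both comparisons with SW480.

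Against WT, 25 of the 29 reported keratins were called in at least 1 resistant state, in 46 of 110 pairs of gene and comparison, 27 times higher and 19 times lower, where 13% of all such pairs over all genes were called higher and 2.58% lower. Of the 27 higher calls, 8 were of genes that reached 1 TPM only in the group where they were high. KRT34 in HCT116 OX res and KRT6B in SW480 5-FU res also needed that group to pass the level rule. The lower calls of KRT20 in HCT116 and KRT6A in SW480 were of genes that needed WT to pass it. The 2 resistant states of a line share its WT libraries. KRT13 was called in all 3 lines, but lower in HCT116 5-FU res and both SW480 states and higher in DLD-1 OX res. Another 8 keratins were called in 2 lines, not always in the same direction, and 16 in 1 line. The scale itself shifted between states, since all genes tested had a median log2 fold change of 0.18 for 5-FU res and 0.60 for OX res in HCT116, 0.44 and 0.36 in SW480 and -0.03 and 0.13 in DLD-1. For the tested keratins the medians in that order were -0.02, 0.36, 0.15, -0.15, -0.00 and 1.20.

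In HCT116 5-FU res, 3 keratins fell and none rose past both thresholds. Higher calls numbered 0 of 18 against 11.6% of all genes, with 5 keratins higher by limma at an unadjusted p under 0.05, and lower calls numbered 3 of 18 against 3.82%. For counts at an unadjusted p, here and below, the share of all genes is not given, and they are not read as a result about keratins. KRT23 went from 23.8, 23.0 and 23.6 TPM in WT to 7.61, 5.84 and 7.35 TPM (log2 fold change -1.63, SE 0.11, adjusted p = 7.27e-08). KRT13 went from 3.64, 3.41 and 3.17 TPM to 1.002, 0.408 and 0.718 TPM (log2 fold change -1.38, SE 0.14, adjusted p = 3.18e-06). KRT20, the intestinal differentiation keratin, went from 3.30, 2.43 and 3.94 TPM to 1.02, 0.694 and 0.848 TPM (log2 fold change -1.18, SE 0.15, adjusted p = 1.51e-05). The WT and 5-FU res libraries did not overlap for any of the 3 genes. KRT18, the main type I keratin, stood at 2555, 2741 and 2516 TPM, a log2 fold change of 0.47 that did not pass the threshold of size.

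In HCT116 OX res KRT20 and KRT23 fell, and the hair keratins KRT34, KRT32 and KRT38 rose while KRT81 was not called. Higher calls numbered 5 of 18, a share close to the 28.5% of all genes, and lower calls 2 of 18 against 4.83%. KRT34, a type I hair keratin, was at 0.146, 0.139 and 0.202 TPM in WT and 9.64, 8.31 and 9.76 TPM in OX res (log2 fold change 3.14, SE 0.11, adjusted p = 1.86e-10). KRT32 was at 3.86, 3.40 and 4.13 TPM in WT and 17.3, 19.9 and 19.4 TPM in OX res (log2 fold change 2.05, SE 0.09, adjusted p = 1.11e-09). KRT38, which lies between these genes, was at 0.0844, 0.0404 and 0.0781 TPM in WT and 1.79, 1.68 and 1.73 TPM in OX res (log2 fold change 1.36, SE 0.12, adjusted p = 4.01e-07). All OX res values of the 3 hair keratins lay above all WT and 5-FU res values. KRT7 was at 12.3, 10.2 and 11.4 TPM in WT and 29.1, 25.7 and 27.1 TPM in OX res (log2 fold change 1.21, SE 0.08, adjusted p = 3.43e-08), and KRT16 at 0.508, 0.763 and 0.872 and 3.46, 2.51 and 2.05 TPM (log2 fold change 1.09, SE 0.17, adjusted p = 7.13e-05).

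KRT20 was nearly absent from HCT116 OX res, at 0, 0.0881 and 0 TPM, where the steps of low values placed 0, 1 and 0 reads (log2 fold change -2.02, SE 0.15, adjusted p = 6.99e-08). KRT23 was at 8.62, 7.20 and 6.83 TPM, below all WT values (log2 fold change -1.52, SE 0.11, adjusted p = 4.76e-08). The levels of KRT8 and KRT18 were 2823, 2608 and 2789.9 TPM and 1638, 1553 and 1589 TPM, with log2 fold changes of -0.32 and -0.24 that turn positive with quantile normalization. KRT16, KRT38 and KRT34 passed the level rule only through OX res, where KRT34 also reached 1 TPM in 2 5-FU res libraries. With FPKM as deposited or quantile normalization the calls were 2 higher and 3 lower, and with median-of-ratios scaling 3 and 3; KRT7 and KRT16 lost their call in all 3 of these scalings and KRT38 in the former 2, and KRT16 also without the first WT or the first OX res library. In the same libraries the colorectal epithelial marker sum was 121.2 to 124 TPM against 690.2 to 714.4 TPM in WT, with CD68 at 61.49 TPM on average and COL1A1 at 16.17 TPM, and the part of these changes in the keratin differences was not tested.

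HCT116 5-FU res and OX res differed from each other in 6 of 18 keratins, against 22.5% of all genes, and all 6 were lower in 5-FU res. They were KRT34, KRT32, KRT13, KRT16, KRT10 and KRT38, with log2 fold changes (5-FU res minus OX res) of -2.27, -1.69, -1.68, -1.55, -1.18 and -1.15. KRT34, KRT16 and KRT38 needed OX res to pass the level rule, which favours a lower value in 5-FU res. The median of all genes in that comparison was -0.34, and the calls of KRT10 and KRT38 were lost in all 3 scalings and that of KRT16 with FPKM as deposited.

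**Figure D2:**
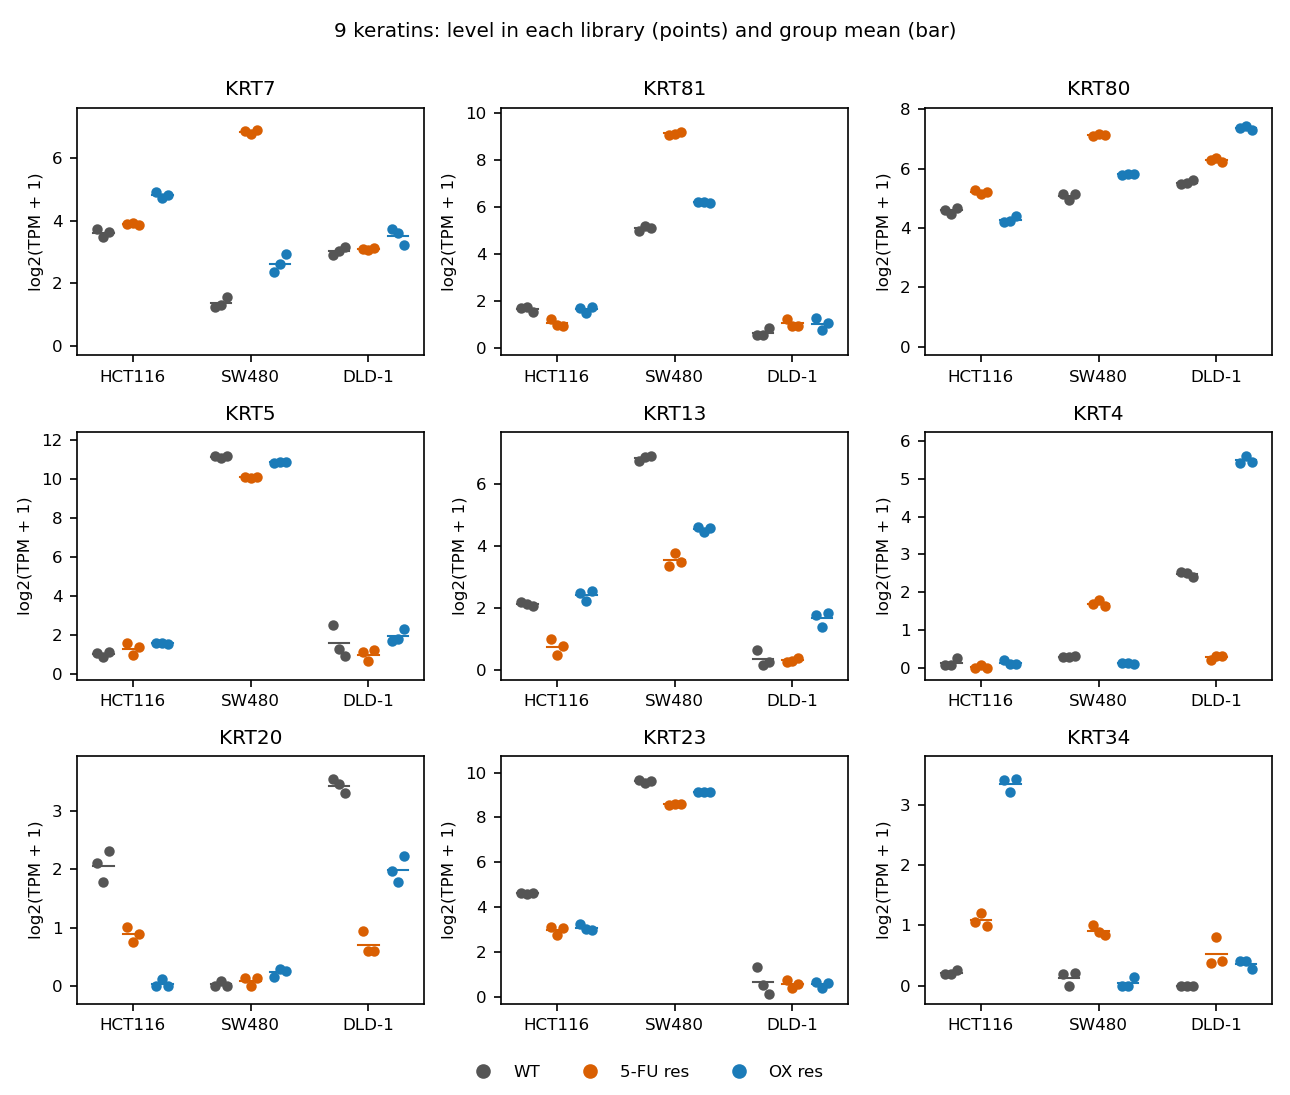
Level of 9 keratins as log2(TPM + 1) in each library (points) with the mean of each group of 3 (short bars), by line and state. KRT7 and KRT81 are highest in SW480 5-FU res, KRT4 in DLD-1 OX res and KRT34 in HCT116 OX res, and KRT20 is lower in the resistant states of HCT116 and DLD-1 than in WT.

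In SW480 5-FU res simple epithelial KRT7 and the hair keratins KRT81 and KRT86 rose and KRT13 fell. Higher calls numbered 8 of 21 against 18.3% of all genes, and lower calls 6 of 21 against 2.85%. KRT7 went from 1.35, 1.48 and 1.94 TPM in WT to 114, 109 and 118 TPM, a 71.4-fold higher mean (log2 fold change 5.47, SE 0.14, adjusted p = 2.75e-10). KRT81 went from 31.0, 36.1 and 33.4 TPM to 535, 554 and 589 TPM, 16.7-fold higher (log2 fold change 4.02, SE 0.06, adjusted p = 1.06e-11). KRT86 went from 3.41, 3.44 and 2.48 TPM to 32.4, 35.6 and 34.4 TPM (log2 fold change 3.10, SE 0.13, adjusted p = 6.48e-09). Every 5-FU res value of these genes exceeded every WT and OX res value. KRT81 in SW480 5-FU res thus stood above KRT19 and KRT23, which were at 443, 425 and 465 TPM and 380, 388 and 391 TPM in those libraries.

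Other type II keratins also rose in SW480 5-FU res, all but KRT80 from below 1 TPM in WT. KRT80, found in many differentiated epithelia, went from 34.5, 29.5 and 34.2 TPM to 137, 142 and 141 TPM (log2 fold change 2.07, SE 0.06, adjusted p = 1.01e-09). KRT75 of the hair follicle companion layer went from 0.280, 0.333 and 0.304 TPM to 3.82, 4.75 and 4.11 TPM (log2 fold change 2.00, SE 0.11, adjusted p = 5.27e-08). KRT4 went from 0.221, 0.219 and 0.241 TPM to 2.202, 2.47 and 2.11 TPM (log2 fold change 1.41, SE 0.10, adjusted p = 4.69e-07). For these 3 genes the groups did not overlap. KRT6B, a wound keratin, was at 0.466, 0.205 and 0.282 TPM in WT and 2.43, 3.55 and 1.83 TPM in 5-FU res (log2 fold change 1.43, SE 0.18, adjusted p = 3.28e-05). KRT83, a hair keratin, was at 0.128, 0.889 and 0.279 TPM and 2.37, 1.62 and 1.72 TPM (log2 fold change 1.05, SE 0.21, adjusted p = 0.000838), a call lost in all 3 scalings and when WT library 1, WT library 3 or 5-FU res library 1 was removed. KRT4, KRT83 and KRT6B passed the level rule only through 5-FU res, where KRT6B also reached 1 TPM in 1 OX res library. KRT4 and KRT6B lost their call with FPKM as deposited and quantile normalization.

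Keratins of stratified epithelium were among those that fell in SW480 5-FU res. KRT13 went from 106, 117 and 119 TPM to 9.16, 12.9 and 10.2 TPM (log2 fold change -3.30, SE 0.11, adjusted p = 1.44e-09), while its usual partner KRT4 rose. KRT5 went from 2298, 2147 and 2327 TPM to 1105, 1072 and 1104 TPM (log2 fold change -1.04, SE 0.04, adjusted p = 3.09e-09). KRT6A, the close relative of KRT6B, went from 5.32, 3.52 and 4.75 TPM to 1.09, 1.36 and 0.611 TPM (log2 fold change -1.46, SE 0.16, adjusted p = 1.32e-05). In each case all WT values lay above all 5-FU res values. KRT71 of the inner root sheath went from 28.1, 25.9 and 27.6 TPM to 8.02, 9.19 and 9.75 TPM (log2 fold change -1.50, SE 0.10, adjusted p = 3.17e-07), while its neighbour KRT74 was at 41.7, 37.7 and 43.2 TPM in WT and 38.8, 37.2 and 40.3 TPM in 5-FU res (log2 fold change -0.07). KRT19 averaged 908.7 TPM in WT and 444 TPM in 5-FU res (log2 fold change -1.03, SE 0.05, adjusted p = 2.31e-08) and KRT23 784 and 386.5 TPM (log2 fold change -1.02, SE 0.04, adjusted p = 3.94e-09). The calls of KRT5, KRT19 and KRT23, all close to the threshold of size, were lost with quantile normalization, and 1 left-out library also ended those of KRT19 (the second WT or second 5-FU res) and KRT23 (the first WT). With FPKM as deposited, 5 keratins were higher and 6 lower.

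In SW480 OX res the same WT libraries gave 4 higher calls of 21 against 13.7% of all genes, and 5 lower calls against 1.22%. The higher calls were KRT7 (4.17, 5.10 and 6.59 TPM), KRT86 (9.48, 8.05 and 6.99 TPM), KRT75 (1.98, 1.91 and 1.70 TPM) and KRT81 (74.0, 74.4 and 70.6 TPM), with log2 fold changes of 1.27, 1.16, 1.13 and 1.10. Their OX res values lay between those of WT and 5-FU res without overlap, but all 4 calls were lost with FPKM as deposited, quantile normalization and median-of-ratios scaling, which left 0 higher and 4, 5 and 5 lower calls. KRT13 was at 23.7, 21.1 and 23.2 TPM (log2 fold change -2.28, SE 0.11, adjusted p = 5.12e-08). KRT71 was at 6.20, 5.16 and 6.56 TPM (log2 fold change -2.02, SE 0.10, adjusted p = 9.29e-08), and KRT74 at 17.4, 18.8 and 19.1 TPM (log2 fold change -1.11, SE 0.07, adjusted p = 5.18e-07). KRT6A was at 0.680, 0.654 and 0.762 TPM (log2 fold change -1.69, SE 0.16, adjusted p = 7.65e-06). All of these were below WT in every library. KRT17, a wound keratin, was at 1.09, 1.39 and 1.19 TPM in WT, 2.32, 1.39 and 1.43 TPM in 5-FU res, but 0, 0.133 and 0.112 TPM in OX res (log2 fold change of OX res -1.04, SE 0.15, adjusted p = 8.63e-05), a call lost with FPKM as deposited and without the second WT or the first OX res library. KRT5 was at 1831, 1899 and 1873 TPM, a log2 fold change of -0.27 that did not pass the threshold of size.

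The 2 resistant SW480 states differed from each other in 8 of 21 keratins, 7 higher and 1 lower in 5-FU res, against 11.1% of all genes in either direction. KRT7, KRT81, KRT86, KRT4, KRT80, KRT17 and KRT74 were higher in 5-FU res than in OX res, with log2 fold changes of 4.21, 2.92, 1.94, 1.58, 1.32, 1.31 and 1.03, and KRT13 was lower with -1.02. With FPKM as deposited the count was 5, without KRT13, KRT17 and KRT74, and KRT13 also lost its call with 5-FU res library 1, 5-FU res library 3 or OX res library 1 removed, and KRT74 without the first OX res library. The colorectal epithelial marker sum was 190 to 199.5 TPM in 5-FU res and 326.4 to 356.7 TPM in OX res against 465.8 to 522.4 TPM in WT, and the leukocyte list summed to 29.2 to 32.65 TPM and 24.24 to 28.51 TPM against 8.447 to 9.784 TPM, with CD68, LYZ and CD14 as the only genes of that list at 1 TPM or more on average. In 5-FU res the fibroblast list summed to 5.137 to 5.587 TPM against 1.006 to 1.5 TPM, with PDGFRB higher (log2 fold change 1.26). Among the SW480 groups PDGFRB averaged 1 TPM or more in 5-FU res alone, where the level rule favours a higher value. The endothelial list summed to 46.52 to 47.72 TPM against 30.31 to 33.65 TPM. In it ROBO4 was higher (log2 fold change 1.20, from 0.293 to 1.97 TPM on average). EGFL7 was the only other endothelial gene at 1 TPM or more on average in 5-FU res and made up most of that sum. COL1A2, COL3A1, PECAM1 and CDH5 averaged below 1 TPM. The part of these lists in the keratin differences was not tested.

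DLD-1 5-FU res differed from WT in 2 keratins, both lower. Higher calls numbered 0 of 16 against 2.12% of all genes, with 3 keratins higher by limma at an unadjusted p under 0.05, and lower calls 2 of 16 against 1.76%. KRT20 went from 10.6, 9.91 and 8.84 TPM in WT to 0.923, 0.511 and 0.509 TPM (log2 fold change -2.72, SE 0.15, adjusted p = 3.95e-08). KRT4 went from 4.78, 4.66 and 4.28 TPM to 0.153, 0.254 and 0.253 TPM (log2 fold change -2.19, SE 0.09, adjusted p = 5.23e-09), with 2, 3 and 3 reads behind the 5-FU res values by the steps of low values. The groups did not overlap for either gene. KRT80 averaged 45.31 TPM in WT and 76.86 TPM in 5-FU res, below the threshold of size. In the same libraries 3 of the 7 tested colorectal epithelial markers fell, CEACAM5 from 56.77 to 1.97 TPM (log2 fold change -4.29), LGALS4 (-1.33) and CDX2 (-1.08), and the marker sum was 1497 to 1629 TPM against 1743 to 1811 TPM in WT. Their part in the keratin differences was not tested.

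In DLD-1 OX res KRT8, KRT18 and KRT19, the most abundant keratins, rose together with 7 others. Higher calls numbered 10 of 16, or 6 of 12 without the 4 genes that passed the level rule only through OX res, where 2.7% of all genes were called higher, and lower calls 1 of 16 against 0.913%. KRT8 went from 4564, 4688 and 4798 TPM in WT to 10610.5, 9983 and 9849 TPM, 2.17-fold higher (log2 fold change 1.11, SE 0.05, adjusted p = 1.09e-08). KRT18 went from 3106, 2959.9 and 3233 TPM to 7676, 7225 and 7102 TPM, 2.37-fold higher (log2 fold change 1.24, SE 0.05, adjusted p = 4.74e-09). KRT19 went from 543, 518 and 525 TPM to 1301, 1176 and 1091 TPM, 2.25-fold higher (log2 fold change 1.17, SE 0.06, adjusted p = 4.35e-08). No OX res value of these 3 keratins came near a WT or 5-FU res value. The call of KRT8 was lost with FPKM as deposited and median-of-ratios scaling, under which its size fell short of the threshold.

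KRT4, KRT13, KRT15 and KRT80, of the 7 tested basal and stratified keratins, also rose in DLD-1 OX res, while KRT10, KRT5 and KRT2 were not called. KRT4 was at 41.6, 47.4 and 42.6 TPM, 9.59-fold higher than in WT (log2 fold change 3.01, SE 0.09, adjusted p = 4.35e-10), and its partner KRT13 at 2.43, 1.60 and 2.63 TPM against 0.555, 0.112 and 0.202 TPM (log2 fold change 1.32, SE 0.19, adjusted p = 0.000111). KRT15 went from 1.11, 1.33 and 1.66 TPM to 11.6, 12.3 and 10.2 TPM (log2 fold change 2.39, SE 0.15, adjusted p = 1.26e-07). KRT80 went from 43.3, 44.8 and 47.9 TPM to 165, 172 and 159 TPM (log2 fold change 1.85, SE 0.06, adjusted p = 3.76e-10). The OX res values of each gene lay above all WT and 5-FU res values. The wound keratins KRT16 and KRT6A were at 6.84, 5.43 and 8.62 TPM and 2.93, 2.50 and 3.21 TPM in OX res against 0.462, 0.331 and 0.199 TPM and 0.0628, 0 and 0 TPM in WT, with log2 fold changes of 2.57 (SE 0.17, adjusted p = 3.00e-07) and 1.92 (SE 0.16, adjusted p = 1.48e-06). The hair keratin KRT31 was listed at 0 in all WT and 5-FU res libraries and at 4.91, 5.03 and 3.88 TPM in OX res (log2 fold change 2.48, SE 0.15, adjusted p = 1.03e-07). KRT13, KRT16, KRT31 and KRT6A passed the level rule only through OX res, which favours a higher value there, and KRT13 lost its call with FPKM as deposited.

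KRT20 moved against the other keratins in DLD-1 OX res, at 2.93, 2.42 and 3.68 TPM against 10.6, 9.91 and 8.84 TPM in WT (log2 fold change -1.44, SE 0.15, adjusted p = 8.63e-06). KRT7 was at 12.3, 11.1 and 8.39 TPM against 6.44, 7.13 and 7.93 TPM in WT, and KRT5 at 2.17, 2.43 and 3.97 TPM against 4.56, 1.44 and 0.865 TPM, where the first WT library stood above all OX res libraries. The colorectal epithelial marker sum was 1658 to 1705 TPM in OX res, with LGALS4 lower (6.25 to 0.574 TPM, log2 fold change -2.22). The endothelial list summed to 27.64 to 31.35 TPM against 18.45 to 20.63 TPM in WT. In it VWF was higher (log2 fold change 1.15, from 0.228 to 1.73 TPM on average), and PECAM1, CDH5 and KDR averaged below 1 TPM. Among the DLD-1 groups VWF averaged 1 TPM or more in OX res alone, where the level rule favours a higher value. EGFL7 was the only other endothelial gene at 1 TPM or more on average in OX res and made up most of that sum. The part of these changes in the keratin differences was not tested. Between the 2 resistant states of DLD-1, 11 of 16 keratins were called, all lower in 5-FU res, against 8.52% of all genes. Among the 11, KRT13, KRT16, KRT31 and KRT6A passed the level rule only through OX res, which favours a lower value in 5-FU res. KRT4 differed most, with a log2 fold change of -5.20 (SE 0.09, adjusted p = 4.07e-12), followed by KRT15, KRT16 and KRT31 with -2.65, -2.49 and -2.48. KRT8, KRT18 and KRT19 differed by -1.12, -1.06 and -1.16 and lost their call with FPKM as deposited and median-of-ratios scaling, under which 5 and 7 keratins were called.

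**Figure D3:**
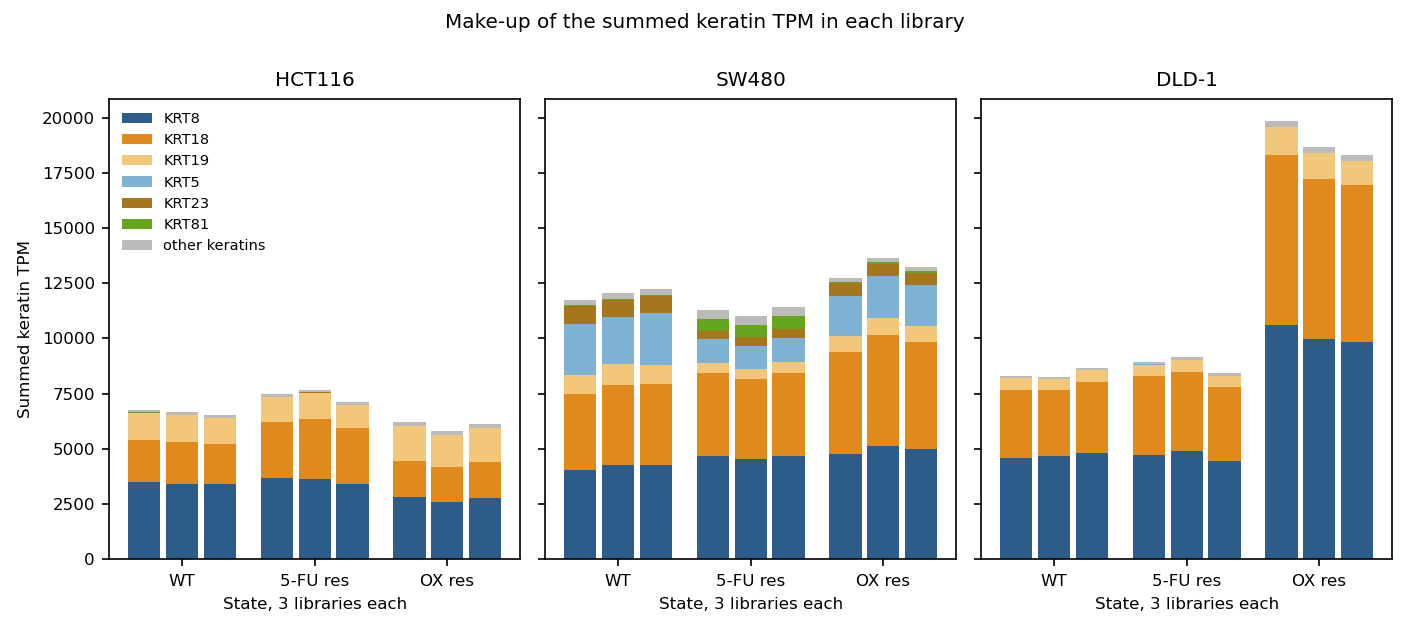
Summed keratin TPM in each of the 27 libraries, stacked by gene, with bars starting at 0. The 3 DLD-1 OX res libraries reach 18314 to 19871 TPM against 8257.1 to 8648.1 TPM in DLD-1 WT, and KRT81 is visible as a layer in SW480 5-FU res.

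The summed keratin level was compared with an exact 2-sided permutation test over libraries, in which 3 against 3 libraries cannot give a p below 0.1. In DLD-1 the sum was 8404 ± 213 TPM (SD, n = 3) in WT, 8827 ± 378 TPM in 5-FU res (exact p = 0.2) and 18950 ± 815 TPM in OX res, 2.25-fold that of WT with no overlap (exact p = 0.1). In HCT116 it was 6644 ± 117 TPM for WT, 7416 ± 289 TPM for 5-FU res and 6051 ± 217 TPM in OX res, and in SW480 12010 ± 244 TPM, 11240 ± 198 TPM and 13190 ± 444 TPM (exact p = 0.1 for each against WT). With FPKM as deposited or median-of-ratios scaling the higher sums of HCT116 5-FU res and SW480 OX res turned lower than WT, so that their direction depends on the scaling. The share of type I keratins in the sum, which multiplying a library by a factor does not alter, was 47.75% ± 0.49 in HCT116 WT against 51.19% ± 0.91 in 5-FU res and 53.86% ± 0.34 in OX res. In SW480 it was 45.19% ± 0.50 in WT against 41.00% ± 0.13 in 5-FU res and 46.95% ± 0.15 in OX res, and in DLD-1 43.52% ± 0.94, 45.99% ± 0.31 and 45.24% ± 0.22 (SD, n = 3; exact p = 0.1 for each against WT). The share was thus higher than in WT in 5 of the 6 resistant groups and lower in SW480 5-FU res, with no overlap between groups in any of the 6 comparisons.

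The ratio of KRT8 to KRT18, the type II and type I partners of simple epithelium, was 1.83 ± 0.06 in HCT116 WT against 1.37 ± 0.06 in 5-FU res and 1.72 ± 0.04 in OX res (SD, n = 3). In SW480 the ratio was 1.17 ± 0.01 in WT against 1.25 ± 0.01 in 5-FU res and 1.02 ± 0.00 in OX res, and in DLD-1 it was 1.51 ± 0.06, 1.33 ± 0.02 and 1.38 ± 0.00. The resistant libraries did not overlap with WT in any comparison (exact permutation p = 0.1 for each), and SW480 5-FU res was the group in which the ratio was higher than in WT.

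Calls along the chromosome 12 cluster of SW480 are given here in gene order. The genes KRT80, KRT7, KRT86, KRT81 and KRT83, which span chr12:52562780-52715182, were all called higher in 5-FU res, by log2 fold changes from 1.05 (KRT83) to 5.47 (KRT7), as were KRT75 and KRT6B, the next reported genes. The following genes KRT6A, KRT5 and KRT71 were all called lower, and KRT74 was not called. KRT4, KRT8 and KRT18 further on had log2 fold changes of 1.41, 0.15 and 0.06. Those of KRT8 and KRT18 turned negative with FPKM as deposited and median-of-ratios scaling. KRT83, KRT6B and KRT4 needed 5-FU res to pass the level rule, which favours a higher value there. KRT83 lost its call in all 3 scalings, KRT6B and KRT4 with FPKM as deposited and quantile normalization, and KRT5 with the latter. In OX res of the same line KRT7, KRT86, KRT81 and KRT75 were called higher, and KRT6A, KRT71 and KRT74 lower. All of these higher calls were lost in each of the 3 scalings. In the chromosome 17 cluster of HCT116 OX res, KRT34, KRT38 and KRT32 were called higher, with KRT31, KRT37 and other genes of the stretch below the level rule. In DLD-1 OX res KRT31 was the called hair keratin of that stretch. KRT34 and KRT38 in HCT116 and KRT31 in DLD-1 needed OX res to pass the level rule. The call of KRT38 was lost with FPKM as deposited and quantile normalization. KRT86 overlaps KRT7 on the same strand and KRT81 on the opposite strand, and 25% of its 100-base windows are identical to KRT81, as are 29.4% of those of KRT81 to KRT86, so that the split between them is uncertain. KRT6B and KRT6A share 23.8% and 17.7% of their windows with KRT6C, which reached at most 0.22 TPM, and KRT16 shares 3.78% with KRT14. KRT8 and KRT18 overlap on opposite strands, and whether the counting used strand is not given in the sources used here.

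**Figure D4:**
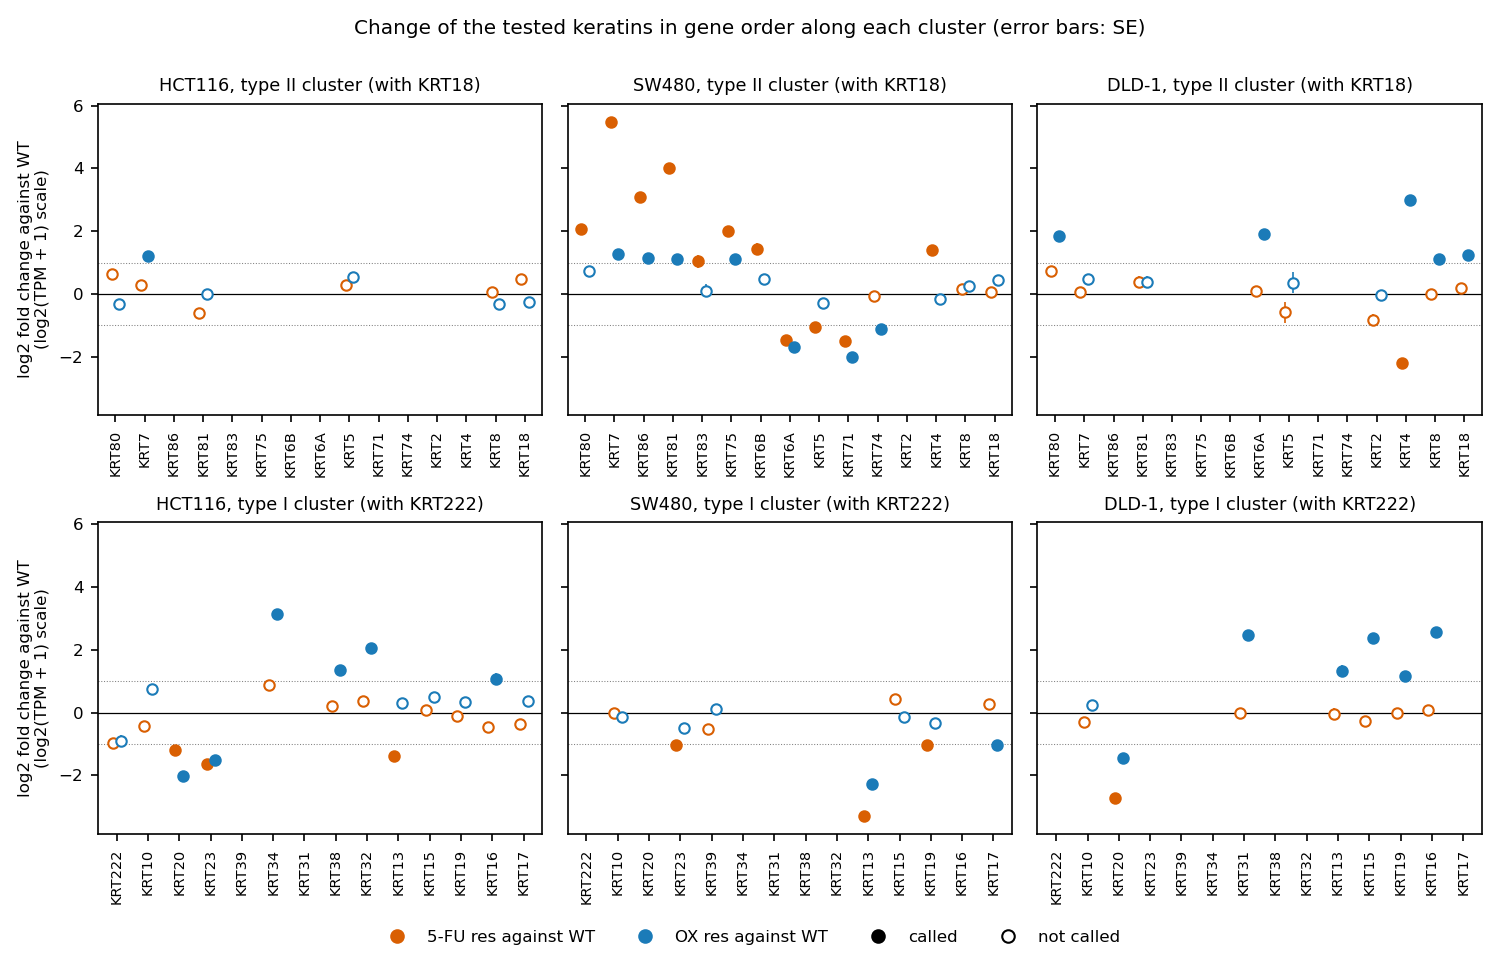
log2 fold change against WT, with its SE, of the tested keratins in gene order along the chromosome 12 cluster (top) and the chromosome 17 cluster (bottom) in each line, for 5-FU res and OX res; filled points are called, and genes below the level rule in a line have no point. In SW480 5-FU res the genes from KRT80 to KRT6B lie above 1 and KRT6A, KRT5 and KRT71 below -1, while in DLD-1 OX res the called genes other than KRT20 lie above 1. KRT83 and KRT6B in SW480 needed 5-FU res to pass the level rule. KRT13, KRT16, KRT31 and KRT6A in DLD-1 needed OX res.

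Whether the response to the drug differed between lines was tested as an interaction in limma over all 27 libraries. For 5-FU res, 14 of the 29 keratins were called, against 38.9% of all genes, and for OX res 21 of 29, against 39.5%. Of those called for OX res, KRT16, KRT31, KRT34 and KRT38 needed OX res to pass the level rule. KRT6B, called for 5-FU res, needed SW480 5-FU res, and KRT75 passed only in the resistant SW480 states. Such a pass favours a difference between lines, so these counts are partly set by the rule. KRT7 was among the largest for 5-FU, with a log2 fold change that was 5.40 smaller in DLD-1 than in SW480 (adjusted p = 5.44e-18), but it was not called for OX res, where the largest difference between lines was 0.77. KRT4 differed in both, at -3.60 for 5-FU res and 3.18 for OX res in DLD-1 minus SW480 (adjusted p = 1.27e-17 for both). KRT8 and KRT18 differed for OX res, by 1.44 and 1.48 in DLD-1 minus HCT116 (adjusted p = 4.10e-15 and 3.06e-15), and were not called for 5-FU res. KRT20 was lower than WT in all 4 resistant groups of HCT116 and DLD-1, and was below 1 TPM in all SW480 libraries.

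By their usual tissue, the keratins fell into 5 groups of 6 simple epithelial, 17 basal and stratified, 5 wound, 9 hair follicle sheath and 17 hair shaft members, with KRT222 in none. For reading the counts of this and the following lists, the shares of all genes called higher and lower were 11.6% and 3.82% for HCT116 5-FU res and 28.5% and 4.83% for HCT116 OX res. They were 18.3% and 2.85%, then 13.7% and 1.22% for the SW480 states, and 2.12% and 1.76%, then 2.7% and 0.913% for the DLD-1 states. These shares do not apply to the counts at an unadjusted p, for which no share of all genes is given. The simple group was tested for 6 members in HCT116 and 5 in the other lines. Its calls numbered 0 higher and 2 lower for HCT116 5-FU res and 1 higher and 2 lower for HCT116 OX res. SW480 had 1 higher and 2 lower for 5-FU res and 1 higher and 0 lower for OX res, and DLD-1 had 0 higher and 1 lower, and 3 higher and 1 lower. For the zero counts limma gave 2, 2 and 1 members at an unadjusted p under 0.05, in the order named. Of the hair shaft group, 4 members were tested in HCT116, 4 in SW480 and 2 in DLD-1, and limma called none lower in any comparison, with 1 lower at an unadjusted p under 0.05 in HCT116 5-FU res and 1 in SW480 5-FU res. Their higher calls for 5-FU res and OX res numbered 0 and 3 in HCT116, 3 and 2 in SW480 and 0 and 1 in DLD-1, where the counts of 0 stood beside 2 and 1 members higher at an unadjusted p under 0.05. Among these, KRT34 and KRT38 in HCT116 and KRT31 in DLD-1 passed the level rule only through OX res, and KRT83 in SW480 only through 5-FU res. The calls of KRT83 and of KRT81 and KRT86 in SW480 OX res were lost in all 3 scalings. In DLD-1 OX res 4 of the 7 tested basal and stratified members were called higher, and without KRT13, which passed the level rule only there, 3 of 6. The sheath group was tested in SW480 alone, for KRT71, KRT74 and KRT75, where KRT75 rose and KRT71 fell in both resistant states and KRT74 fell in OX res. The call of KRT75 in OX res was lost in all 3 scalings.

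Keratin filaments are tied to desmosomes and to other cytoskeletal systems by linker proteins. A list of genes around desmosomes and keratin linkers was followed. It also held SFN and KRTCAP3, whose calls are not read as changes of linkers. The list had 24 genes, of which 19 were tested in each line. In HCT116 5-FU res 7 were higher (11.6% of all genes) and 1 lower (3.82%), with a median of 0.62 against 0.18 of all genes, led by EPPK1 (log2 fold change 2.60, SE 0.14, adjusted p = 2.23e-08), the plakin PLEC (2.03, SE 0.12, adjusted p = 3.88e-08) and the desmosomal protein PERP (1.73, SE 0.04, adjusted p = 5.59e-11). In HCT116 OX res 2 of 19 were higher, below the 28.5% of all genes, MACF1 at 2.13 and PLEC at 1.35, and 3 lower, KRTCAP3 at -5.05, SFN at -1.18 and plakoglobin (JUP) at -1.01. SW480 5-FU res had 3 higher (18.3% of all genes) and 1 lower and OX res 6 higher (13.7%) and 1 lower. PLEC, DST and MACF1, all large plakins, led the higher calls of both states, with PLEC at 1.55 and 2.11, and plakophilin PKP3 was the lower one at -1.83 and -1.49. In DLD-1 5-FU res 1 was lower, the desmocollin DSC2 at -2.19 (SE 0.09, adjusted p = 6.62e-09), and in OX res 2 were higher, SFN at 1.20 and periplakin (PPL) at 1.18.

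Of 18 other intermediate filament genes, 10 were tested in HCT116 and SW480 and 8 in DLD-1. Vimentin (VIM), the filament protein of mesenchymal cells, rose in HCT116 OX res to 43.22 TPM on average (log2 fold change 3.06, SE 0.09, adjusted p = 5.71e-11), together with SYNM (2.24), while LMNB1 (-2.55), NES (-2.50) and LMNB2 (-1.34) fell. In HCT116 5-FU res 1 was called, IFFO2, at the threshold of size. SW480 5-FU res had 4 higher, led by SYNM at 2.24, DES at 1.84 and BFSP1 at 1.38, and LMNA lower at -1.14, and OX res had NES higher at 1.85 and SYNM at 1.56. In DLD-1 limma called 0 of the 8 in either state, with 5 at an unadjusted p under 0.05 in 5-FU res and 5 in OX res.

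Transcription factors with known keratin targets or roles in epithelial identity numbered 24, of which 17, 15 and 19 were tested in HCT116, SW480 and DLD-1. In HCT116 5-FU res 1 was higher, SNAI2 at 1.43. In HCT116 OX res 8 were higher (28.5% of all genes), led by ZEB1 at 3.41, KLF4 at 2.85 and SNAI2 at 2.55, and 5 lower (4.83% of all genes), among them GRHL2 at -3.51 and OVOL1 at -2.70. In SW480 5-FU res 7 were higher (18.3%), led by EHF at 4.70 (SE 0.13, adjusted p = 5.30e-10), ZEB1 at 2.23 and SNAI2 at 2.04, and the intestinal factor CDX2 and OVOL2 were lower at -2.77 and -1.37. In SW480 OX res 7 were higher (13.7%), led by ZEB1 at 2.26, FOXA2 at 1.59 and EHF at 1.55. DLD-1 5-FU res had 4 lower (1.76%), led by EHF at -1.52, GRHL3 at -1.15 and CDX2 at -1.08, and OX res had 2 higher, GRHL1 at 1.20 and OVOL1 at 1.18.

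The 4 reported keratins that were never called against WT were KRT10, KRT222, KRT39 and KRT2. KRT10, a keratin of the upper epidermis, was between 11.7 and 47.3 TPM in all 27 libraries, and KRT222 averaged 4.21 TPM in HCT116 WT, 1.62 TPM in 5-FU res and 1.84 TPM in OX res (log2 fold changes -0.98 and -0.89). The 26 members below the level rule reached at most 1.34 TPM in any library, the highest being KRT36, and KRT26 and KRT27 were listed at 0 in all 27. The reporting rule left values close on both sides. The value ranked 3 from the top in a line was 1.01 TPM for KRT17 in HCT116 and 1.12 TPM for KRT81 in DLD-1, just inside it, and 0.938 TPM for KRT71 in DLD-1 and 0.936 TPM for KRT86 in HCT116, just outside.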

How the data were processed

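The 27 libraries were sequenced by the authors as 100-base single reads of stranded mRNA libraries on a DNBSEQ-G400, aligned to hg19 with TopHat2 2.1.1 (Bowtie2 2.2.8 and SAMtools 0.1.18 are also listed in the submitters' processing notes) and summarised as FPKM (fragments per kilobase of exon and per 1000000 mapped fragments) with Cufflinks by the methods or Cuffdiff 2.2.1 by those notes. The deposited FPKM tables hold 26255 gene symbols, with the annotation and read totals not stated in the sources used here. FPKM depend on the gene models and on how reads shared by near-identical genes are split.

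FPKM were divided by the library sum to give TPM, with a pseudocount of 1 before log2. limma 3.58.1 in R 4.3.3 (lmFit, eBayes with trend, 2-sided) was fitted per line over 9 libraries for genes that reached 1 TPM in 3 or more of these, and over all 27 for WT lines and interactions. Adjusted p-values are Benjamini-Hochberg over all genes tested. Positions came from GENCODE for GRCh37, and Python 3.11.15, pandas 2.3.3, numpy 2.4.6 and matplotlib 3.10.9 were used. Named were the keratins passing the level rule and, of the linker, filament and transcription factor lists, the 3 largest calls per direction, apart from a result that is not reported here. The members and lists were chosen with earlier results of these data known. Alternatives were another pseudocount, no filter, a mean TPM filter of 5, FPKM as deposited, quantile and median-of-ratios scaling, no trend, a replicate block, 2 groups only and each library left out.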

Additional observations from a re-analysis of the deposited data

Results flagged for a closer look

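These keratins were singled out because their response to a drug differed between lines by the interaction test in limma over 27 libraries, with a difference of more than 1 on the log2 scale between at least a pair of lines. Of all genes, 38.9% met this for 5-FU res and 39.5% for OX res. Each value is the difference of 2 log2 fold changes against WT, for the pair of lines furthest apart. The DLD-1 libraries are named in another number series, so that line and library series cannot be told apart in its differences, and no cause was tested.

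For 5-FU res, the response in DLD-1 minus that in SW480 was 3.27 for KRT13, 2.44 for KRT71, 1.55 for KRT6A and 1.03 for KRT19, and -5.40 for KRT7, -3.60 for KRT4 and -2.77 for KRT20. In SW480 minus HCT116 it was 4.62 for KRT81, 3.31 for KRT86, 1.97 for KRT75, 1.59 for KRT6B, 1.44 for KRT80 and -1.32 for KRT5. In DLD-1 minus HCT116 it was 1.55 for KRT23.

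For OX res, the response in DLD-1 minus that in SW480 was 3.61 for KRT6A, 3.60 for KRT13, 3.18 for KRT4, 2.54 for KRT15, 2.49 for KRT16, 1.54 for KRT17, 1.49 for KRT19 and 1.48 for KRT74. In DLD-1 minus HCT116 it was 2.70 for KRT31, 2.16 for KRT80, 1.48 for KRT18, 1.44 for KRT8 and 1.43 for KRT23. In SW480 minus HCT116 it was 2.23 for KRT20, 1.13 for KRT75, 1.11 for KRT81 and 1.01 for KRT86, and -3.22 for KRT34, -2.13 for KRT32, -2.06 for KRT71 and -1.54 for KRT38.

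In 9 of the 14 differences for 5-FU res and 15 of the 21 for OX res, at least 1 of the 2 lines averaged below 1 TPM in WT, so that a fall in that line could hardly be measured. KRT16, KRT31, KRT34 and KRT38 needed OX res to pass the level rule, KRT6B needed SW480 5-FU res, and KRT75 passed only in the resistant SW480 states. For these genes the rule itself favours a difference between lines.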

How the results depend on the processing

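Of the 46 keratin calls against WT, the filter at a mean TPM of 5 left 21 untested, and 16 were lost where still tested, all 16 in a scaling alternative and 5 of them also when 1 library was left out, while none was lost with the replicate block. Low values rest on few reads: by the steps of low values the 0.408 and 0.718 TPM of KRT13 in HCT116 5-FU res stood for 5 and 8 reads. The cause of the moves below was not tested, except that the filter at a mean TPM of 5 tests fewer genes.

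The log2 ratio of the summed keratin TPM reversed with FPKM as deposited to -0.0619 in HCT116 5-FU res and -0.3028 in SW480 OX res, and with median-of-ratios scaling to -0.1065 and -0.3181. Higher calls in HCT116 OX res numbered 2, 2 and 3 with FPKM as deposited, quantile normalization and median-of-ratios scaling, those in SW480 OX res 0 with each of these, and those in SW480 5-FU res 5 with either of the former 2. Between 5-FU res and OX res, FPKM as deposited gave 5 calls in SW480 and 5 in DLD-1, and median-of-ratios scaling 7 in DLD-1. With a pseudocount of 0.1, HCT116 5-FU res had 1 higher and 5 lower and the DLD-1 and HCT116 WT lines differed in 15. When the filter was a mean TPM of 5, the higher calls were 2 for HCT116 OX res, 4 for SW480 5-FU res and 5 for DLD-1 OX res. The lower calls were then 1 for each HCT116 state, 3 for SW480 OX res, 1 for DLD-1 5-FU res and 0 for DLD-1 OX res. That filter also gave 2 calls in HCT116 and 5 in DLD-1 between the resistant states, 8, 5 and 9 between the WT lines (SW480 and HCT116, DLD-1 and HCT116, DLD-1 and SW480), and 9 and 11 interactions for 5-FU res and OX res.

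Of 1796 values of single genes, 1695 kept direction and side of the threshold, 77 fell short of it and 24 reversed, all 24 for KRT8, KRT18 or KRT19 where none was called. With quantile normalization KRT19 in HCT116 5-FU res was 0.2065, KRT8 there -0.01663, KRT18 and KRT8 in HCT116 OX res 0.4343 and 0.1566, and KRT19 in DLD-1 5-FU res -0.0495. With FPKM as deposited KRT8 was -0.1669 for HCT116 5-FU res, -0.3049 for SW480 5-FU res, -0.1886 for SW480 OX res and 0.02103 for DLD-1 5-FU res, KRT19 -0.2187 in HCT116 OX res and KRT18 -0.3955 in SW480 5-FU res. With median-of-ratios scaling KRT8 was -0.211, -0.3608, -0.2039 and 0.0239 in the same 4 groups, KRT19 -0.3134 in HCT116 OX res, and KRT18 -0.4515 in SW480 5-FU res and -0.01182 for SW480 OX res. With 1 library left out, KRT19 in DLD-1 5-FU res ranged from -0.03251 to 0.04928 (-0.01483, -0.01378 and -0.00406 in the other reversals), and KRT8 there from -0.03323 to 0.033 (0.01503 in the other reversal).

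Leaving out each library in turn gave HCT116 OX res 4 to 5 higher and 2 to 3 lower calls, HCT116 5-FU res 3 to 4 lower, SW480 5-FU res 7 to 8 higher and 5 to 6 lower, SW480 OX res 4 higher and 4 to 5 lower, and left the DLD-1 counts against WT as they were. Between the resistant states the counts were then 6 to 7 in HCT116, 7 to 9 in SW480 and 11 to 12 in DLD-1, and between the WT lines 14, 9 to 10 and 15 to 16. Libraries with the same replicate number did not deviate together: the correlation of their deviations from the group means was -0.20 to 0.22 and over 0.1 in 5 of 27 pairs. With the replicate number as a block every count of called keratins was as without it: 0 higher and 3 lower for HCT116 5-FU res, 5 and 2 for HCT116 OX res, 8 and 6 for SW480 5-FU res, 4 and 5 for SW480 OX res, 0 and 2 for DLD-1 5-FU res and 10 and 1 for DLD-1 OX res. The block changed no single call.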
